A study of Mus musculus with 12 samples.

Results

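The 10 genes of triglyceride synthesis and glycerol handling described here were followed in interscapular brown fat of mice that lack Cpt2 in adipocytes and of their controls. They were the acyltransferases Gpam, Gpat4 and Agpat2, the phosphatases Lpin1 and Lpin2, the final acyltransferases Dgat1 and Dgat2, and the glycerol genes Gpd1, Pck1 and Aqp7. The 10 were chosen by name, each was read from the array row with the highest mean among rows assigned to it alone, and all 10 were among the 15896 genes tested of 20259 with such a row. The 12 female C57BL/6 mice were 12 weeks old, all carried floxed Cpt2 (Cpt2f/f) and all had been kept for 2 weeks at 30 °C, near thermoneutrality. Wild-type controls had the floxed alleles and no Cre, and knockouts also carried adiponectin-Cre, which is active in white as well as brown adipocytes and leaves Cpt2 in other cells of the tissue. Within each genotype, 3 mice received saline and 3 received CL316243 at 10 mg/kg, which stimulates the β3-adrenergic receptor, and RNA was taken 3 h later, with 1 array per mouse.

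Triglyceride is made in the endoplasmic reticulum by adding fatty acids to glycerol 3-phosphate, removing its phosphate and adding a last acyl chain. Adipocytes obtain glycerol 3-phosphate from glycolysis or, through glyceroneogenesis, from pyruvate and lactate, and they release the glycerol set free by lipolysis through an aquaglyceroporin. Brown fat stimulated through the β3 receptor breaks down stored triglyceride and re-esterifies part of the fatty acids. Cpt2 completes the import of long-chain acyl groups into mitochondria for oxidation, the other fate of those fatty acids.

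The Cpt2 log2 signal averaged 8.86 in wild-type saline, 8.65 in wild-type CL316243, 8.11 in knockout saline and 7.90 in knockout CL316243 mice, and its knockout difference was -0.75 ± 0.096 (SE, adjusted p = 0.00207) after saline. Over the tested genes, pairs of arrays correlated at 0.937 to 0.984 inside a group and at 0.878 to 0.960 across groups. Among the brown adipocyte markers, Ucp1 was at 8.39 in knockout saline array 1 and between 10.69 and 13.68 in the other arrays. The mean of the 8 skeletal muscle markers in the table ran from 7.26 in that array to 11.20 in wild-type saline array 3. Values are log2 signals throughout, so a difference of 1 is a doubling of signal. A gene is said to rise, fall or differ where limma's moderated test gave a Benjamini-Hochberg adjusted p under 0.05 over all 15896 genes, and errors of differences are standard errors with 3 mice per group. The labels call the mice of a group biological replicates and state no batch.

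The clearest pattern was an opposite movement of the 2 diacylglycerol acyltransferases in both genotypes and a lower signal of Aqp7, Gpat4 and Pck1 in stimulated knockouts than in stimulated wild types. CL316243 raised Dgat1, Pck1 and Gpat4 and lowered Dgat2 in wild types, 3 rises and 1 fall among 10 genes, where 11.0% of all tested genes rose and 18.8% fell. With the arrays median-centred or quantile-normalized again, 62.2% or 49.7% of all calls for the agonist in wild types were rises, in place of 36.8%, and the called genes of the 10 kept their directions. In knockouts Dgat1 rose while Dgat2 and Aqp7 fell, against 7.75% of all genes higher and 10.2% lower. After saline the knockouts differed from wild types in Aqp7 alone, which was lower, while 5.44% of all genes were higher and 6.19% lower. After CL316243, Aqp7, Gpat4 and Pck1 were lower in knockouts and none of the 10 was higher, against 14.7% of all genes higher and 14.8% lower. The interaction, which subtracts the wild-type agonist effect from the knockout one, was negative for Aqp7 and Gpat4, against 0.774% of all genes with a positive and 1.26% with a negative call. The median difference of the 10 genes, set beside that of all tested genes, was 0.22 against -0.071 for the agonist in wild types, -0.022 against -0.057 for the agonist in knockouts, 0.12 against -0.055 for the knockout after saline, -0.25 against -0.042 for the knockout after CL316243 and -0.16 against 0.011 for the interaction.

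**Figure D1:**
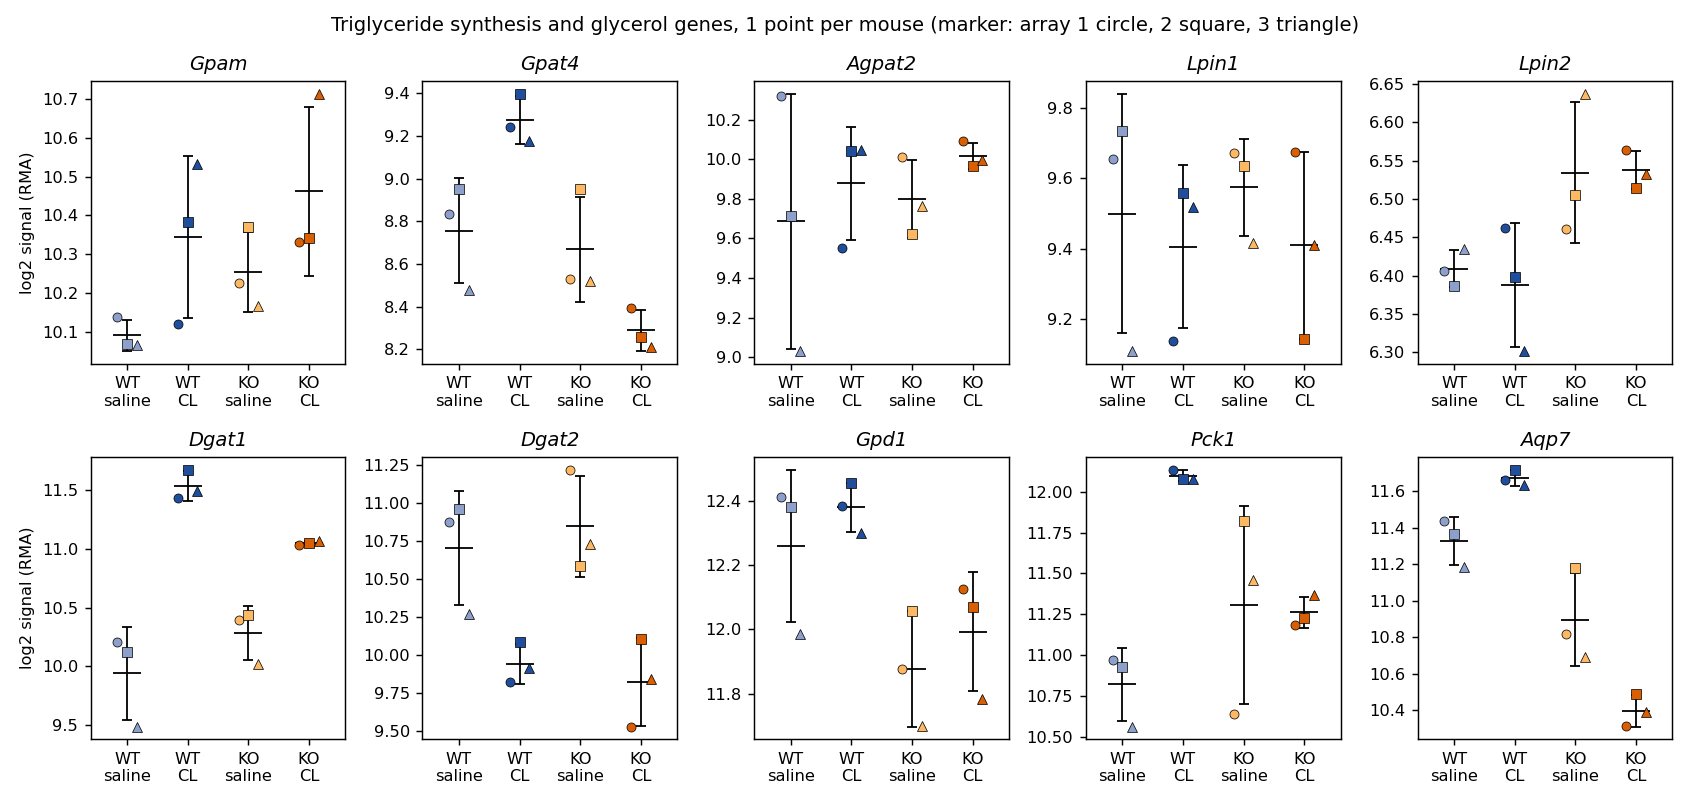
Log2 signal (RMA, vertical axes with a scale of their own per gene) of the 10 genes in wild-type (WT) and knockout (KO) mice after saline or CL316243 (CL). Each point is 1 mouse, with circles, squares and triangles for arrays 1, 2 and 3, and bars give the group mean ± SD. Dgat1 is high in both CL316243 groups, Dgat2 is low there, and Aqp7 and Gpat4 are lowest in the knockout CL316243 group.

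Dgat1 and Dgat2 catalyse the same final step, the joining of a fatty acyl-CoA to diacylglycerol, but belong to unrelated protein families. Dgat1, which in mouse fat protects the endoplasmic reticulum from fatty acids released by lipolysis, had signals of 10.21, 10.13 and 9.49 in wild types given saline, 11.44, 11.68 and 11.49 in wild types given the agonist, 10.39, 10.44 and 10.02 in knockouts given saline and 11.03, 11.05 and 11.07 in knockouts given the agonist. Every CL316243 array lay above every saline array of either genotype, and the 3 stimulated knockouts lay below the 3 stimulated wild types. Dgat1 rose 3.02-fold in wild types (1.59 ± 0.17, adjusted p = 1.11e-04) and 1.70-fold in knockouts (0.77 ± 0.17, adjusted p = 0.0127). At the threshold of 0.05 both rises kept their call in each of the 22 other settings tried, with wild-type values from 1.37 to 1.73 and knockout values from 0.63 to 0.85. The knockout difference after CL316243 was -0.48 ± 0.17 and did not pass (adjusted p = 0.0577). It passed in 6 of 22 alternatives. Among these were median-centring (adjusted p = 0.0459), quantile-normalizing (adjusted p = 0.0450) and, at the same size, the omission of wild-type saline array 3 (adjusted p = 0.0113). The interaction was -0.83 ± 0.25 and did not pass (adjusted p = 0.122, 95% interval -1.37 to -0.28 before adjustment).

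Dgat2, which is linked to the use of newly made fatty acids, was at 10.88, 10.96 and 10.27 in wild types given saline, 9.83, 10.09 and 9.92 in wild types given the agonist, 11.22, 10.59 and 10.73 in knockouts given saline and 9.53, 10.11 and 9.84 in knockouts given the agonist. All 6 stimulated mice lay below all 6 saline mice, and the genotypes overlapped after either injection. Dgat2 fell by 0.76 ± 0.21 in wild types (adjusted p = 0.0203) and by 1.02 ± 0.21 in knockouts (adjusted p = 0.00882). The fall in wild types lost its call without array 1 (-0.67, adjusted p = 0.0721) or array 2 (-0.63, adjusted p = 0.0793) of the wild-type saline group, and likewise without array 1 of the stimulated wild types (-0.70, adjusted p = 0.0644), and the fall in knockouts kept it in all 22. The Dgat2 interaction was -0.26 ± 0.30 (adjusted p = 0.747), with a 95% interval from -0.92 to 0.41, so the size of the fall was not resolved between genotypes.

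**Figure D2:**
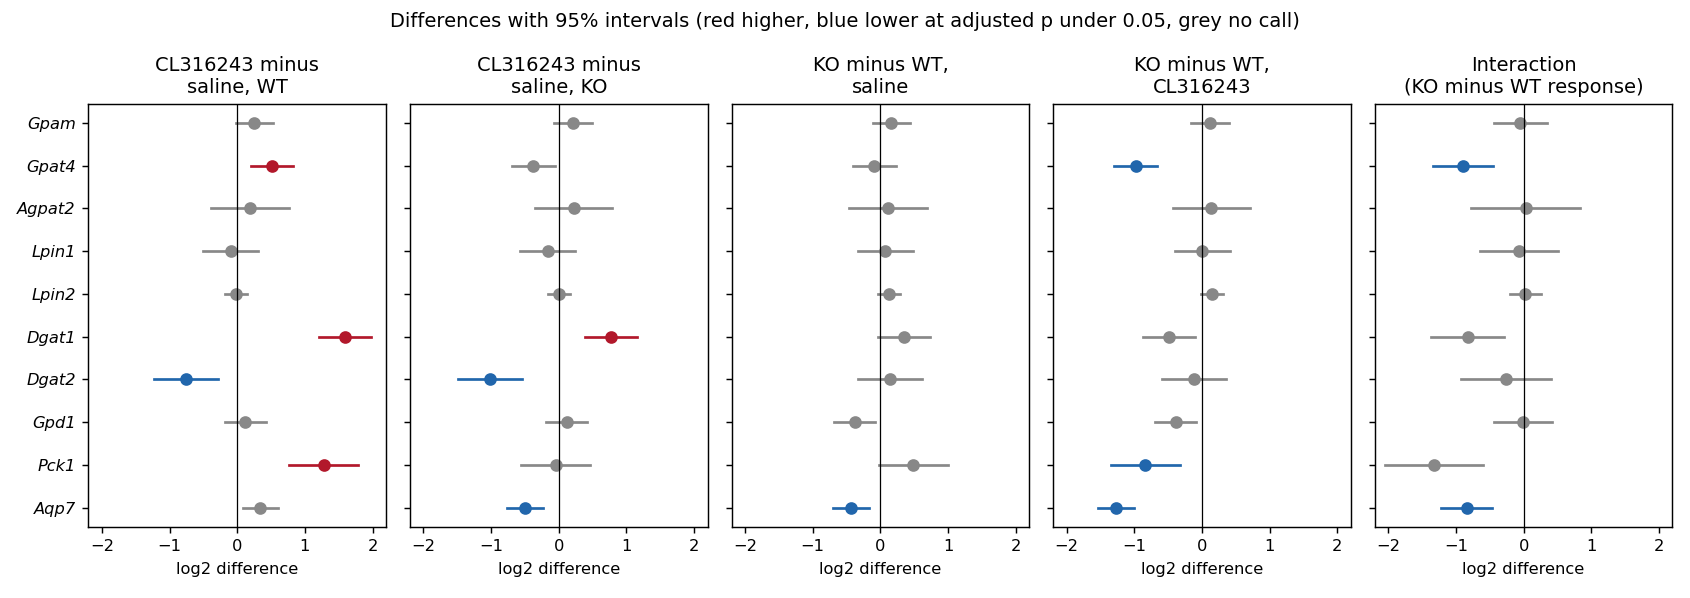
Log2 differences (points) with 95% confidence intervals (lines) for the 10 genes in the 5 comparisons. Red marks genes that were higher and blue genes that were lower at an adjusted p under 0.05, and grey marks no call. The knockout comparison after CL316243 has 3 lower genes and no higher one.

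The first acylation of glycerol 3-phosphate is carried out by Gpam on the mitochondrial outer membrane and by Gpat4 in the endoplasmic reticulum. Gpat4 signals were 8.84, 8.95 and 8.48 in wild types given saline, 9.24, 9.40 and 9.18 in wild types given the agonist, 8.53, 8.95 and 8.52 in knockouts given saline and 8.40, 8.26 and 8.21 in knockouts given the agonist. The saline groups overlapped, the stimulated wild types were the highest and the stimulated knockouts the lowest, with no overlap between those and any other group. Gpat4 rose 1.43-fold in wild types (0.52 ± 0.14, adjusted p = 0.0195). In knockouts its difference was -0.38 ± 0.14 and did not pass (adjusted p = 0.0920). That difference passed in 1 of 22 alternatives, with replicate number as a block (adjusted p = 0.0458). After CL316243 Gpat4 was 1.98-fold lower in knockouts than in wild types (-0.98 ± 0.14, adjusted p = 7.99e-04), a difference between -1.04 and -0.92 in all 22 alternatives tried. The interaction was -0.89 ± 0.20 at the edge of the threshold (adjusted p = 0.04998), and its sign was the same in all alternatives while its call was lost in 16 of 21. Leaving out any array other than wild-type saline array 2 ended the interaction call, with values from -0.97 to -0.75 and adjusted p up to 0.126. The rise in wild types lost its call without wild-type saline array 3 (0.38, adjusted p = 0.0658) and also without array 2 of the stimulated wild types (0.45, adjusted p = 0.0721).

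Gpam had no call in any comparison. Its signals were 10.14, 10.07 and 10.07 in wild types given saline, 10.12, 10.38 and 10.53 in wild types given the agonist, 10.23, 10.37 and 10.17 in knockouts given saline and 10.33, 10.34 and 10.71 in knockouts given the agonist. Its agonist and knockout differences ran from 0.12 ± 0.13 for the knockout after CL316243 to 0.25 ± 0.13 for the agonist in wild types (adjusted p = 0.159), with 95% intervals of -0.16 to 0.39 and -0.02 to 0.53, and its interaction was -0.046 ± 0.18 (adjusted p = 0.937). After median-centring the arrays again, the agonist difference in wild types was 0.37 and passed (adjusted p = 0.0316).

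The next steps showed no call. Agpat2 adds the second acyl chain to make phosphatidic acid, and its loss causes generalized lipodystrophy in people. Its signals ranged from 9.03 to 10.32 in wild types given saline, from 9.55 to 10.05 in wild types given the agonist, from 9.62 to 10.01 in knockouts given saline and from 9.97 to 10.09 in knockouts given the agonist. Wild-type saline array 3 was the lowest of the 12 and array 1 of that group the highest. With that spread, the largest of the 4 agonist or knockout differences was 0.22 ± 0.26 (agonist in knockouts, 95% interval -0.35 to 0.79, adjusted p = 0.628).

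Lpin1 and Lpin2 encode lipins, which remove the phosphate from phosphatidic acid to give diacylglycerol. Lpin1 ranged from 9.11 to 9.74 in wild types given saline, from 9.14 to 9.56 in wild types given the agonist, from 9.42 to 9.67 in knockouts given saline and from 9.14 to 9.68 in knockouts given the agonist, and all groups overlapped. Its largest difference was -0.16 ± 0.19 (agonist in knockouts, 95% interval -0.57 to 0.24, adjusted p = 0.608). Lpin2 ranged from 6.39 to 6.43, from 6.30 to 6.46, from 6.46 to 6.64 and from 6.51 to 6.56 in the same order of groups. Its knockout difference after CL316243 was 0.15 ± 0.073 (95% interval -0.01 to 0.31, adjusted p = 0.141), with the 3 knockouts above the 3 wild types, and its agonist differences were -0.022 ± 0.073 in wild types and 0.0034 ± 0.073 in knockouts. Lpin2 had 3 array rows. The other 2 had means of 4.33 and 3.83, under the 25th percentile of the named genes, which lay between 5.27 and 5.58 in the 12 arrays.

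Glycerol 3-phosphate supply and glycerol exit were represented by Pck1, Gpd1 and Aqp7. Pck1, the cytosolic phosphoenolpyruvate carboxykinase that limits glyceroneogenesis in fat, rose 2.42-fold in wild types and had no call for the agonist in knockouts. Its signals were 10.97, 10.93 and 10.56 in wild types given saline, 12.14, 12.07 and 12.08 in wild types given the agonist, 10.64, 11.82 and 11.46 in knockouts given saline and 11.19, 11.23 and 11.37 in knockouts given the agonist. The stimulated wild types lay above all other arrays, and the unstimulated knockouts were spread over more than 1 log2 unit, with array 1, the one low in Ucp1, the lowest. The agonist difference was 1.28 ± 0.23 in wild types (adjusted p = 0.00228) and -0.047 ± 0.23 in knockouts (adjusted p = 0.922, 95% interval -0.56 to 0.47). The knockout value depended on single saline arrays, at -0.38 without knockout saline array 1 (adjusted p = 0.116) and 0.21 without array 2 of that group, neither of them a call. After CL316243 Pck1 was 1.78-fold lower in knockouts than in wild types (-0.84 ± 0.23, adjusted p = 0.0210), a call lost without wild-type CL316243 array 2 (-0.85, adjusted p = 0.0509), knockout CL316243 array 1 (-0.80, adjusted p = 0.0643) or knockout CL316243 array 2 (-0.82, adjusted p = 0.0585). The interaction was -1.32 ± 0.33 and did not pass (adjusted p = 0.0679). Without knockout saline array 1 the interaction was -1.66 and passed (adjusted p = 0.00460), and the knockout difference after saline moved from 0.49 ± 0.23 (adjusted p = 0.193) to 0.82 (adjusted p = 0.0163).

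Gpd1, the cytosolic dehydrogenase that makes glycerol 3-phosphate from the glycolytic intermediate dihydroxyacetone phosphate, was at 12.41, 12.38 and 11.99 in wild types given saline, 12.38, 12.45 and 12.30 in wild types given the agonist, 11.88, 12.06 and 11.70 in knockouts given saline and 12.12, 12.07 and 11.78 in knockouts given the agonist. The stimulated knockouts lay below the stimulated wild types, and after saline wild-type array 3 fell among the knockouts. The knockout difference was of like size after either injection and did not pass in either case, at -0.38 ± 0.14 after saline (adjusted p = 0.0936) and -0.39 ± 0.14 after CL316243 (adjusted p = 0.0540). Without wild-type saline array 3 both passed, at -0.52 (adjusted p = 0.0339) and -0.39 (adjusted p = 0.0295). Both also passed with replicate number as a block (adjusted p = 0.0263 and 0.0107). The difference passed in 2 of 22 alternatives after saline and in 5 of 22 after CL316243. The agonist differences of Gpd1 were 0.12 ± 0.14 in either genotype, and the interaction was -0.0043 ± 0.19 with a 95% interval from -0.43 to 0.42.

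Aqp7, the aquaglyceroporin through which adipocytes release glycerol, had the lowest adjusted p of the 10 genes in the knockout comparisons. Its signals were 11.43, 11.37 and 11.18 in wild types given saline, 11.66, 11.72 and 11.63 in wild types given the agonist, 10.82, 11.18 and 10.69 in knockouts given saline and 10.31, 10.49 and 10.39 in knockouts given the agonist. All 6 knockouts lay below all 6 wild types, although knockout saline array 2 and wild-type saline array 3 both read 11.18, and the agonist groups lay above their saline group in wild types and below it in knockouts. After CL316243 Aqp7 was 2.42-fold lower in knockouts (-1.27 ± 0.12, adjusted p = 8.98e-05), and this difference stayed between -1.32 and -1.23 with a call in all 22 alternatives. The fall under the agonist in knockouts was 1.41-fold (-0.50 ± 0.12, adjusted p = 0.0164), a call that did not survive the omission of knockout CL316243 array 1 (-0.46, adjusted p = 0.0644). The wild-type difference of 0.34 ± 0.12 did not pass (adjusted p = 0.0510) and passed in 6 of 22 alternatives, among them the omission of knockout saline array 2 (adjusted p = 0.0155) or array 3 (adjusted p = 0.0401), which leave the value unchanged.

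Aqp7 was also lower in knockouts after saline, by 1.35-fold (-0.43 ± 0.12, adjusted p = 0.0411). This call was lost in 12 of 22 alternatives, including 9 of the 12 omissions of an array, where values ran from -0.57 to -0.33. The call held without wild-type saline array 3, wild-type CL316243 array 3 or knockout saline array 2. The interaction of Aqp7 was -0.84 ± 0.17 (adjusted p = 0.0312). It lost its call without any of 7 arrays, namely wild-type saline arrays 1 and 3, wild-type CL316243 arrays 1 and 2 and the 3 knockout CL316243 arrays, with all omissions giving -0.94 to -0.70 and adjusted p up to 0.0851.

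**Figure D3:**
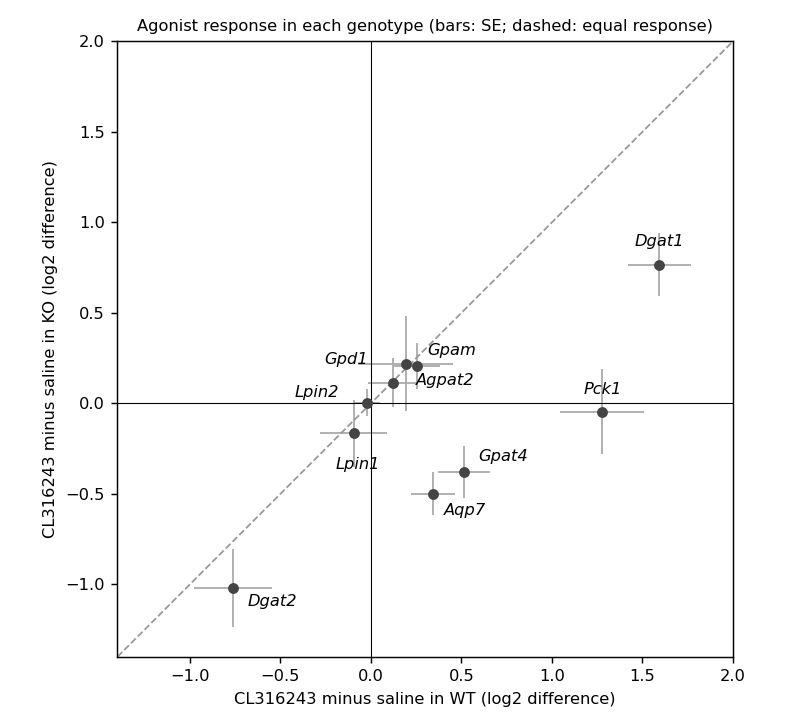
Agonist response of each gene in wild types (horizontal axis) and knockouts (vertical axis), as log2 differences from saline with bars of 1 standard error. The dashed line marks equal responses. Dgat1, Pck1, Gpat4 and Aqp7 lie below the line, while Gpam, Agpat2, Lpin1, Lpin2 and Gpd1 lie close to it near the origin and Dgat2 is negative on both axes.

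The promoters of Pck1 and Aqp7 are shown because both genes were lower in stimulated knockouts and the agonist acts through cAMP. RefSeq promoter windows on GRCm38.p6, 250 bases before to 50 bases after a gene start, were matched for 6 of the 10 genes (Agpat2, Aqp7, Gpam, Lpin1, Lpin2 and Pck1). Several motifs were searched on both strands, the cAMP response element TGACGTCA together with its half-site TGACG, the variant TTACGTCA, which contains that half-site on the other strand, and the nuclear receptor half-site AGGTCA. The Pck1 window lies at chr2:173152823-173153122 on the plus strand, and capitals mark the variant element. The Aqp7 window lies at chr4:41047913-41048212 on the minus strand, one of 2 overlapping windows listed for that gene, and capitals mark the nuclear receptor half-sites, which read AGGTCA on the opposite strand.
Pck1: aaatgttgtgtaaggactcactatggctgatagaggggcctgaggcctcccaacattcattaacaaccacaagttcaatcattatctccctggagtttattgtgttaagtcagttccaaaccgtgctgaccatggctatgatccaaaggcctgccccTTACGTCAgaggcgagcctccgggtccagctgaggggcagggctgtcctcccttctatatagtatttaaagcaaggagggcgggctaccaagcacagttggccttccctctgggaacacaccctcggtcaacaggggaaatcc
Aqp7: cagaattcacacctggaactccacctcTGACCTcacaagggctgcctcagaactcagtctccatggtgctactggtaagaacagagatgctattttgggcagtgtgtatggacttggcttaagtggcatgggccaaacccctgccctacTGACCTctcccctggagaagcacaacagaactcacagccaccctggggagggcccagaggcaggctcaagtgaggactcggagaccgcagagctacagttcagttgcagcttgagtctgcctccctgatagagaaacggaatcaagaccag
In Pck1 the variant element began at position -93 from the start site, and 0.499% of all 32851 windows hold these letters. The 2 half-sites of Aqp7 began at positions -223 and -101 from its start, and 16.3% of all windows hold at least 1, as do windows of Gpam and Lpin1, which had no call. The half-site TGACG occurred in windows of Gpam, Lpin2 and Pck1, against 20.8% of all windows, and TGACGTCA occurred in none of the 6 genes, against 1.79%. The 6 genes had 10 windows in all. A gene was counted if any of its windows held the letters, while the percentages are per window. These matches describe letters in a window and no binding was measured.

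In bulk tissue, fewer adipocytes and less RNA per adipocyte cannot be told apart. Adipocyte markers, read in the same arrays, do not separate them either. Of the 10 brown adipocyte markers, 6 were lower in stimulated knockouts, among them Pparg, the main regulator of adipocyte identity (-0.65 ± 0.11, adjusted p = 0.00178), and 1, Adipoq, was higher. The median difference of the 10 markers there was -1.77. Their mean signal ran from 9.58 to 9.76 in stimulated knockouts and from 10.93 to 11.04 in stimulated wild types. Adipoq, the adiponectin gene, was higher in knockouts after saline (0.47 ± 0.11, adjusted p = 0.0195) and also in stimulated knockouts (0.67 ± 0.11, adjusted p = 0.00132). After saline it was the only 1 of the 10 markers that was higher, and 2 were lower, against 5.44% and 6.19% of all genes. The median difference of the 10 after saline was -0.23. Fabp4, a fatty acid carrier of adipocytes, had a difference of 0.059 ± 0.16 in stimulated knockouts (adjusted p = 0.789). The droplet coat gene Plin1 had knockout differences of 0.16 ± 0.13 after either injection (adjusted p = 0.433 and 0.359). Markers of other cells moved with genotype as well. After CL316243, 6 of 6 gland epithelium markers and 6 of 7 macrophage markers were higher in knockouts, and the mean gland marker signal ran from 7.35 to 7.93 there against 5.89 to 6.25 in wild types. The mean macrophage marker signal ran from 9.27 to 9.49 in stimulated knockouts and from 8.18 to 8.55 in stimulated wild types. The mean skeletal muscle signal ran from 7.67 to 9.72 in stimulated wild types and from 9.12 to 10.82 in stimulated knockouts, and none of its 8 tested markers had a call. The part of these cells in the differences of Aqp7, Gpat4 and Pck1 was not tested. With the muscle mean as a covariate, added after the data were seen, the knockout differences after CL316243 kept their calls for all 3 genes. The interactions of Aqp7 (-0.83, adjusted p = 0.0550) and Gpat4 (-0.87, adjusted p = 0.0827) did not keep theirs. The muscle mean was itself mostly higher in stimulated knockouts, so this fit does not settle the part of muscle. No such fit was made for gland or macrophage markers. Within wild-type saline, array 3, the one highest in muscle markers, had the lowest signal of the group for 9 of the 10 genes. In wild-type CL316243 the array highest in muscle markers, array 2, was the lowest for 1 of the 10. The arrays highest in muscle markers in knockout saline (array 2) and knockout CL316243 (array 3) were each the lowest for 2 of the 10.

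**Figure D4:**
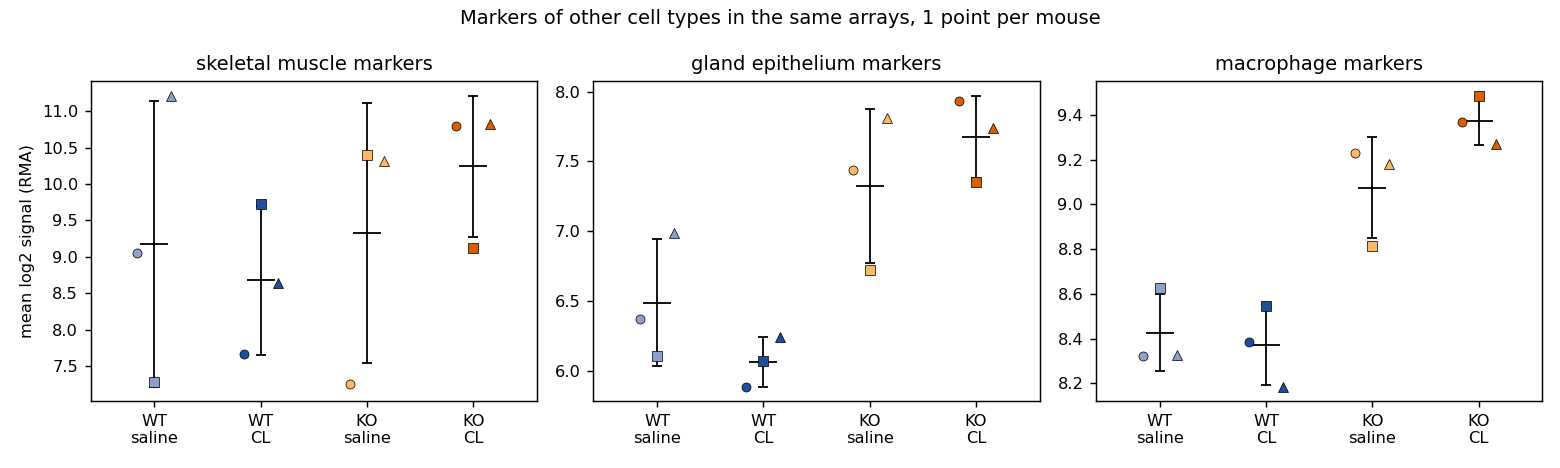
Mean log2 signal of skeletal muscle, gland epithelium and macrophage markers in each array (points, with circles, squares and triangles for arrays 1, 2 and 3) and group means ± SD (bars). Muscle markers spread widely within groups, and the gland and macrophage means of the stimulated knockouts lie above those of all wild types.

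Around the 10 genes, 39 other genes of glycerolipid and glycerol metabolism were listed, of which 35 had a row of their own and all 35 were tested. Of the 35, 19 had a call in at least 1 of the 5 comparisons, but the matching share of all genes was not computed. For the agonist in wild types 5 of 35 rose and 6 fell, against 11.0% and 18.8% of all genes, with a list median of -0.052 against -0.071. In knockouts 2 rose and 4 fell, against 7.75% and 10.2%, with medians of -0.0068 and -0.057. After saline 0 were higher and 2 lower in knockouts, against 5.44% and 6.19%, with medians of -0.10 and -0.055. After CL316243 5 were higher and 7 lower, against 14.7% and 14.8%, with medians of -0.019 and -0.042. The interaction was negative for 1 and positive for 0, against 1.26% and 0.774%, with medians of 0.0086 and 0.011.

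The largest agonist response of the list was that of Gpat3, a further glycerol 3-phosphate acyltransferase of the endoplasmic reticulum and close relative of Gpat4. Its signals were 7.15, 7.25 and 7.08 in wild types given saline, 9.03, 9.02 and 9.30 in wild types given the agonist, 7.57, 7.92 and 7.32 in knockouts given saline and 9.51, 9.26 and 9.26 in knockouts given the agonist. It rose 3.88-fold in wild types (1.96 ± 0.14, adjusted p = 1.19e-05) and 3.35-fold in knockouts (1.74 ± 0.14, adjusted p = 1.07e-04), and all 6 stimulated mice lay above all 6 saline mice. Gpat4, by contrast, had agonist differences of 0.52 in wild types and -0.38, without a call, in knockouts.

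Gpd2, the mitochondrial dehydrogenase that oxidizes glycerol 3-phosphate, was the listed gene with an interaction call. Its signals were 10.85, 10.72 and 10.40 in wild types given saline, 11.10, 11.12 and 11.00 in wild types given the agonist, 9.72, 10.05 and 9.77 in knockouts given saline and 9.16, 9.57 and 9.36 in knockouts given the agonist. All 6 knockouts lay below all 6 wild types. Gpd2 was lower in knockouts by 0.81 ± 0.14 on the log2 scale after saline (a difference of -0.81, adjusted p = 0.00645, not a call at -0.63 with the mean of its array rows, adjusted p = 0.227) and by 3.27-fold after CL316243 (-1.71 ± 0.14, adjusted p = 4.35e-05). Its agonist differences were 0.42 in wild types (adjusted p = 0.0419) and -0.48 in knockouts (adjusted p = 0.0332). These calls held in 11 and 14 of 22 alternatives. The interaction of Gpd2 was -0.90 ± 0.20 (adjusted p = 0.0426), a call lost in 13 of 21 alternatives. Among them were the mean of its rows (-1.16, adjusted p = 0.250) and 9 of the 12 omissions of an array. The call held without wild-type saline array 1, knockout saline array 1 or knockout CL316243 array 2. Gpd1l, a cytosolic relative of Gpd1, fell in both genotypes, by 0.49 ± 0.081 each.

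Of the other listed genes with the largest differences, the acyltransferase Agpat3 was lower in knockouts after saline (-0.40 ± 0.074, adjusted p = 0.00841) and also in stimulated knockouts (-0.63 ± 0.074, adjusted p = 2.53e-04). The call after saline was lost in 2 of 22 alternatives, with only the groups compared (adjusted p = 0.0515) and without both wild-type saline array 3 and knockout saline array 1 (adjusted p = 0.0514). Pyruvate carboxylase, Pcx, which supplies oxaloacetate to Pck1, was higher in stimulated knockouts (0.64 ± 0.16, adjusted p = 0.0145), though not without knockout CL316243 array 1 (adjusted p = 0.0552). The diacylglycerol kinase gene Dgke fell in wild types (-0.45 ± 0.092, adjusted p = 0.00397) and in knockouts (-0.39 ± 0.092, adjusted p = 0.0156). The call in knockouts held in 17 of 22 alternatives. It was lost after median-centring (adjusted p = 0.0641) or quantile-normalizing (adjusted p = 0.0637) again. It was also lost without knockout saline array 1 (adjusted p = 0.0633), without knockout CL316243 array 3 (adjusted p = 0.0602) and without both arrays that stood apart (adjusted p = 0.0664). Dgka, a relative of Dgke, was higher in stimulated knockouts (0.54 ± 0.18, adjusted p = 0.0453), a call lost in 13 of 22 alternatives. In the phospholipid branch, agonist calls of opposite sign in wild types for the phosphotransferases Chpt1 (-0.54 ± 0.15, adjusted p = 0.0173) and Cept1 (0.51 ± 0.16, adjusted p = 0.0323) were each lost in 6 of 22 alternatives.

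**Figure D5:**
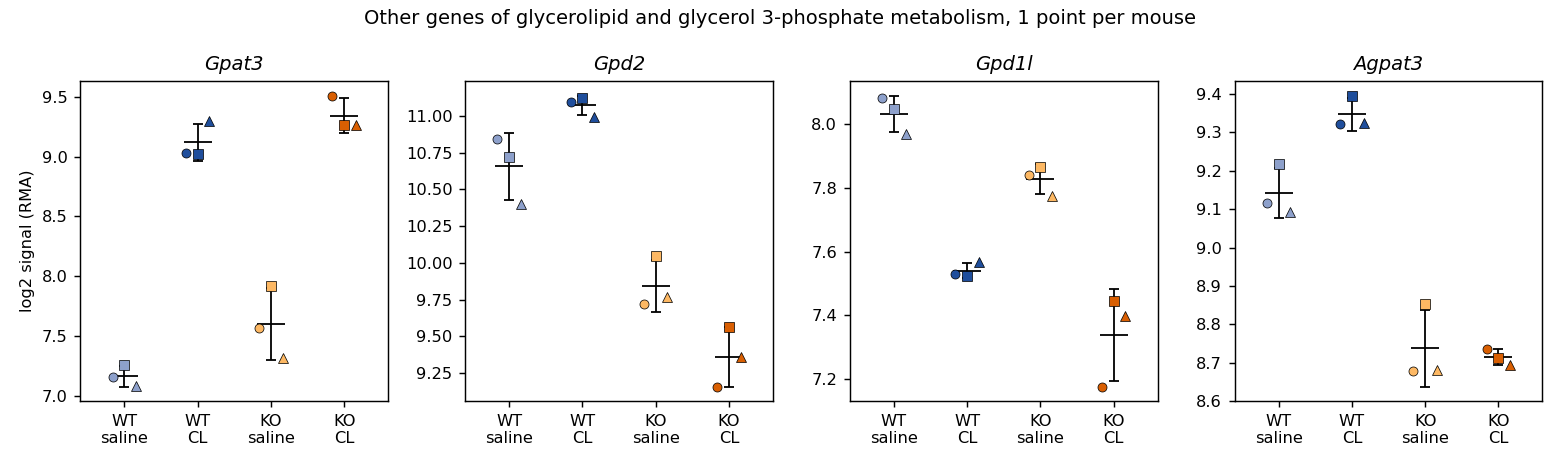
Log2 signal (RMA) of Gpat3, Gpd2, Gpd1l and Agpat3 by group, with 1 point per mouse (circles, squares and triangles for arrays 1, 2 and 3) and group means ± SD. Gpat3 is high in both CL316243 groups, and Gpd2 and Agpat3 are low in both knockout groups.

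For the 3 members with the widest range of group means, the genes with the most similar profile were found as those with the smallest root mean square difference of gene-centred log2 values over the 12 arrays. Nearest to Dgat1, whose own root mean square deviation was 0.66, were the lipid droplet coat gene Plin2 (0.18), the laminin gene Lamb1 (0.20) and the cytochrome P450 gene Cyp4b1 (0.20). Nearest to Pck1 (own deviation 0.53) were the transcript 2310001K24Rik (0.19), the kinase gene Pim3 (0.23) and the transcription factor gene Jun (0.23). Nearest to Aqp7 (own deviation 0.49) were Spring1 (0.11), the peroxisomal protease gene Tysnd1 (0.13) and the oxoprolinase gene Oplah (0.14). Since likeness was measured over the same arrays, the values of these genes follow from how they were chosen and were not used as a test. The agonist differences of Plin2 were 1.60 in wild types and 0.89 in knockouts, beside 1.59 and 0.77 for Dgat1.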

How the data were processed

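RNA of 12 mice was measured on Affymetrix mouse exon arrays. Per the submitters' processing notes, the deposited values are log2 signals made with RMA in Partek on build mm9, with no versions given, and they were used as deposited. Of 115830 rows, the platform table used here assigns 25539 to 1 gene and 2300 to several and does not list 87991. Only rows of 1 gene were used, and the row with the highest mean over all arrays stood for a gene. Genes above the 25th percentile of named genes in at least 3 arrays were tested. One mean per group was fitted with limma 3.58.1 in R 4.3.3 (empirical Bayes, prior degrees of freedom 3.14, residual 8), with 5 comparisons adjusted separately by Benjamini and Hochberg. The fit was also run on simulated data with independent normal noise for each gene, and no result here rests on that run. Tables and figures used Python 3.11.15, pandas 2.3.3 and matplotlib 3.10.9. The number of arrays, 3 per group, limits precision.

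The members and lists were chosen with earlier results of these data known. Named beside the 10 members were listed pathway genes with a call, at most 4 per comparison by size, some markers (Cpt2, Ucp1, Adipoq, Plin1, Pparg and Fabp4, the last 5 picked after their values were seen), and the 3 nearest profiles of 3 members. The text describes only some of the list's calls. Marker lists covered brown and white adipocytes, skeletal muscle, macrophages, endothelium and gland epithelium. White adipocyte markers were higher in stimulated knockouts for 4 of 7 tested and lower for 0, and endothelial markers were higher for 1 and lower for 3 of 6. Alternatives were median-centring or quantile-normalizing again, no filter or a 50th percentile filter, the mean of a gene's rows, a trended prior, only the groups compared, replicate number as a block, an adjusted p under 0.01 and each array left out. A muscle covariate and the joint omission of wild-type saline array 3 and knockout saline array 1 were added after the data were seen. Promoter windows are given on GRCm38.p6. Other gene coordinates are not given, since the annotation given is on a build other than mm9.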

Additional observations from a re-analysis of the deposited data

Results flagged for a closer look

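The agonist effect on Aqp7 and on Gpat4 differed between genotypes by the test of the interaction. For Aqp7 the interaction was -0.84 ± 0.17 (log2, SE, 3 mice per group, limma, adjusted p = 0.0312), from an agonist difference of 0.34 in wild types and -0.50 in knockouts. For Gpat4 it was -0.89 ± 0.20 (adjusted p = 0.04998), from 0.52 in wild types and -0.38 in knockouts. Both calls were lost in part of the alternatives, 9 of 21 for Aqp7 and 16 of 21 for Gpat4, and neither changed sign in any of them.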

How the results depend on the processing

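Of the 50 differences of the 10 genes, 13 had a call at an adjusted p under 0.05. With that threshold, 6 of the 13 kept it in all other settings, and 5 of those 6 also passed 0.01 (not the Dgat1 rise in knockouts, adjusted p = 0.0127). No called difference of the 10 changed sign. Counts of the 10 genes called were 4, 3, 1, 3 and 2 for the agonist in wild types, the agonist in knockouts, the knockout after saline, the knockout after CL316243 and the interaction. With each array left out in turn they ran from 3 to 5, 2 to 3, 0 to 2, 2 to 5 and 0 to 2. At an adjusted p under 0.01 they were 2, 1, 0, 2 and 0. After saline the count was 0 with median-centring and with only the groups compared. After CL316243 it was 5 with only the groups compared and 5 with both arrays that stood apart left out, which adds Dgat1 and Gpd1. The interaction count was 1 with median-centring, 1 with no filter, 1 with the mean of rows and 1 with both arrays left out (Pck1), and 0 with the muscle covariate. No paired analysis is implied by the labels, and same-numbered arrays deviated together (r over 0.1) in 7 of 18 pairs, with r from -0.30 to 0.48. Of the 12 arrays, 7 deviated most like an array of their own number among the arrays of other groups. Pairs of different number were not counted, so a shared effect of replicate number was not settled. With replicate number as a block the counts were 5, 4, 2, 5 and 2, and over all genes 4662, 2796, 1758, 4723 and 292.

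Over all genes the counts were 4735, 2851, 1849, 4685 and 324 in the same order, and with an array left out they ran from 3531 to 4709, 1591 to 3358, 581 to 2458, 3232 to 4742 and 128 to 399. The lowest after saline was without knockout saline array 3. At an adjusted p under 0.01 they were 2629, 1119, 418, 2255 and 52. With both arrays left out the agonist count in knockouts was 1800, the knockout count after saline 653 and the interaction count 165. The saline count was 604 with only the groups compared, and the interaction count was 497 with the stricter filter. Median-centring moved the median of all genes by 0.12 for the agonist in wild types, and the share of higher calls from 36.8 to 62.2% there, from 43.2 to 63.8% for the agonist in knockouts and from 38.0 to 24.1% for the interaction. With the mean of its rows the agonist difference of Gpd2 in knockouts was 0.18 without a call (adjusted p = 0.766). In the main fit it was -0.48 with a call (adjusted p = 0.0332), so its sign reversed with the mean of rows. Lpin2 fell under the filter there and gave no value. The cause of these changes was not tested.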
